A study of Caenorhabditis elegans with 2 samples.

Results

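Peaks of CEH-44, a homeobox transcription factor of the CUT family, were examined at 6 chaperone genes of C. elegans: the mitochondrial hsp-6 and hsp-60, the cytosolic hsp-1 and hsp-110, and the endoplasmic reticulum hsp-3 and hsp-4. They are 6 of 19973 protein-coding genes on the nuclear chromosomes of the annotation, and all 6 were found in it by name. The members were chosen by name with the peaks of these same lists known, among them those at hsp-60, hsp-1 and hsp-6. Their peaks are therefore given as a description, with no test. Each gene was examined from 2000 bp upstream to 200 bp downstream of its most upstream annotated start.

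Chromatin immunoprecipitation and sequencing (ChIP-seq) was done on whole larvae of 1 strain, RW12327, in which CRISPR had placed TY1, EGFP and 3xFLAG tags on the endogenous ceh-44 gene (allele st12327). The larvae were at the fourth stage (L4, 49 hours), after synchronisation by starving freshly hatched animals from bleached eggs, and an antibody against GFP was used on chromatin sonicated to 200 to 800 bp. There were 2 biological replicates of 1 group, with the same genotype and age. Untagged animals and input chromatin were not analysed here, and strong binding in a few cells cannot be told apart from weak binding in many.

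HSP70 proteins bind and release unfolded stretches of other proteins in a cycle driven by ATP. J-domain proteins load clients onto them, and exchange factors such as HSP-110 and BAG-1 reset them. HSP60 forms a barrel in the mitochondrion that encloses folding proteins, with a small partner, HSP10, as its lid. In C. elegans, hsp-6 and hsp-60 are the usual reporters of the mitochondrial unfolded protein response, and hsp-4 is the usual reporter of the response of the endoplasmic reticulum.

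The reference sequences show what lies under the peaks of the 3 genes that had one in the larger series list, and under the strongest candidates of the others. For the first 3 the whole deposited peak is given, and for the others the 101 bases centred on the summit. All are read along the strand of the gene, 5′ to 3′, from the RefSeq copy of assembly WBcel235, which is ce11. Capitals mark GAGAGA, GAANNTTC, TTCNNGAA and TGATGCAA on either strand. The first is a GA repeat, the next pair are arrangements of the repeat unit of the heat shock element, and TGATGCAA was added after the sequences had been read.

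hsp-60, chrIII:1618992-1619247, plus strand: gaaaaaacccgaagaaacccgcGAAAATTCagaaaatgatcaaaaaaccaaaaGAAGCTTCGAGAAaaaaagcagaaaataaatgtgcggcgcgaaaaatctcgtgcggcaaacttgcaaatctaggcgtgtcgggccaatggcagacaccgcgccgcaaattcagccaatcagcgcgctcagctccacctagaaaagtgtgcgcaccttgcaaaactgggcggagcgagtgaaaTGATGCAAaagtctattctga

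hsp-6, chrV:4827064-4827319, minus strand: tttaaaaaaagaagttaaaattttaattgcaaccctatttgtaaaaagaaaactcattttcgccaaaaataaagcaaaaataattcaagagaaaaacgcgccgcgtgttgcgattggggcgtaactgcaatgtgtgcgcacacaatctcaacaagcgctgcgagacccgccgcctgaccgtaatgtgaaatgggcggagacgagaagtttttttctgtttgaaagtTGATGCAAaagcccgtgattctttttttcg

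hsp-1, chrIV:17278421-17278676, plus strand: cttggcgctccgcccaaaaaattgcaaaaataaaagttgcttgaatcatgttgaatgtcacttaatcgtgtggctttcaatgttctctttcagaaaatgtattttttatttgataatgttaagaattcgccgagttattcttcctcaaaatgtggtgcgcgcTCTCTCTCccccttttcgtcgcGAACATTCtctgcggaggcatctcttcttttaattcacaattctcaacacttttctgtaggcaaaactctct

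hsp-3, chrX:6092140-6092240, minus strand: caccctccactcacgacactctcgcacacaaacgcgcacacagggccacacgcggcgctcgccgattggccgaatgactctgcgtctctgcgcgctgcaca

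hsp-4, chrII:7353144-7353244, minus strand: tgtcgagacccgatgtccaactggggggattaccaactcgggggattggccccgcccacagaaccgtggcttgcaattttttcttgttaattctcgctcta

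hsp-110, chrIII:8447402-8447502, minus strand: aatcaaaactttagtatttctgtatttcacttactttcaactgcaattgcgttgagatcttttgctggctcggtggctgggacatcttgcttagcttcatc

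Of the 6 genes, 3 had a summit in the larger series list of 1027 peaks: hsp-60, hsp-1 and hsp-6. Among all coding genes, 4.17% had one in the same window. The conservative series list, of 1003 peaks, held hsp-60 alone, against 4.03% of coding genes. Replicate 1's own list of 387 peaks held hsp-1 alone, against 1.79% of coding genes. Replicate 2's own list of 525 peaks held hsp-6 and hsp-60, against 2.26%. The replicates' own lists thus shared none of the 6 genes. The share of all coding genes held by both own lists is not given here, so nothing is read from this. Since the choice of genes used these lists, nothing is read from the counts against those shares.

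By compartment, both mitochondrial genes, 1 of the 2 cytosolic genes and 0 of the 2 endoplasmic reticulum genes had a peak in the larger list. In the conservative list the counts were 1, 0 and 0. In replicate 1's own list they were 0 mitochondrial, 1 cytosolic and 0 endoplasmic reticulum genes, and in replicate 2's own list 2, 0 and 0. The counts by compartment thus differed between the replicates' own lists. They rest in part on hsp-60 in replicate 1 and hsp-1 in replicate 2, which fell just short of the threshold, so no order of the compartments is read from them. The shares of all coding genes in these lists are those given above. With 2 genes in each compartment the difference was not tested.

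The mitochondrial chaperonin gene hsp-60 (WBGene00002025, chromosome III, 1619742 to 1625803, plus strand) had the strongest peak of the group. The deposited signal is the authors' value for each peak, without a stated unit. It was 116 in the larger list, rank 150 of 1027, where the median peak had 75.96. Its summit lay 622 bp upstream of the start, in intergenic sequence. Replicate 2's own list held it with signal 72.6, rank 102 of 525, with the summit at -638 bp. In replicate 1 the matching candidate had signal 40.4, rank 411 of 63930 candidates, with its summit at -586 bp, and did not enter that replicate's thresholded list. The site thus stood near the top of the candidates of both replicates, although 1 replicate's own list left it out.

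The hsp-60 peak lies between a divergent pair of genes. Its summit was 191 bp upstream of the start of Y22D7AL.10 (WBGene00021248, minus strand), which RefSeq describes as the mitochondrial 10 kDa heat shock protein. The summit was thus nearer to the start of the lid gene than to that of the barrel gene, 622 bp away. The larger and the conservative list gave this peak the same coordinates and signal. Replicate 2's summit was 175 bp from the start of Y22D7AL.10.

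The other mitochondrial gene, hsp-6 (WBGene00002010, chromosome V, 4824124 to 4826760, minus strand), encodes the HSP70 of the mitochondrial matrix. Its peak had signal 62.8 in the larger list, rank 795 of 1027, below the median, with the summit 432 bp upstream of the start. In replicate 2's own list the summit was at -400 bp with signal 51.6, rank 339 of 525. In replicate 1 the strongest candidate in the window lay at -475 bp with signal 15.3, rank 17733 of 63930. The hsp-6 site was therefore among the highest candidates of replicate 2 and in the middle ranks of replicate 1.

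This peak too lies between a divergent pair, here a mitochondrial chaperone gene and C37H5.5, which RefSeq describes as a homolog of nucleolar complex protein 3. The summit was 168 bp upstream of the start of C37H5.5 and lay inside exons of C37H5.15 and C37H5.16, noncoding RNA genes annotated on opposite strands within the same stretch.

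The cytosolic HSP70 gene hsp-1 (WBGene00002005, chromosome IV, 17278959 to 17281330, plus strand) encodes the constitutive chaperone of the cytosol. Its peak had signal 75.1 in the larger list, rank 525 of 1027, close to the median peak, with the summit 410 bp upstream of the start. In replicate 1's own list the summit was at -398 bp with signal 40.4, rank 330 of 387. Replicate 2 had 2 overlapping candidates instead, at -564 bp with signal 34.6 (rank 1201 of 68342) and at -361 bp with signal 22.9 (rank 7792). Neither entered replicate 2's own list. No coding gene shares this peak. The noncoding RNA gene F26D10.23 ends 47 bp upstream of the summit, and the snoRNA gene F26D10.24 begins 1497 bp downstream of it, inside the span of hsp-1.

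**Figure D1:**
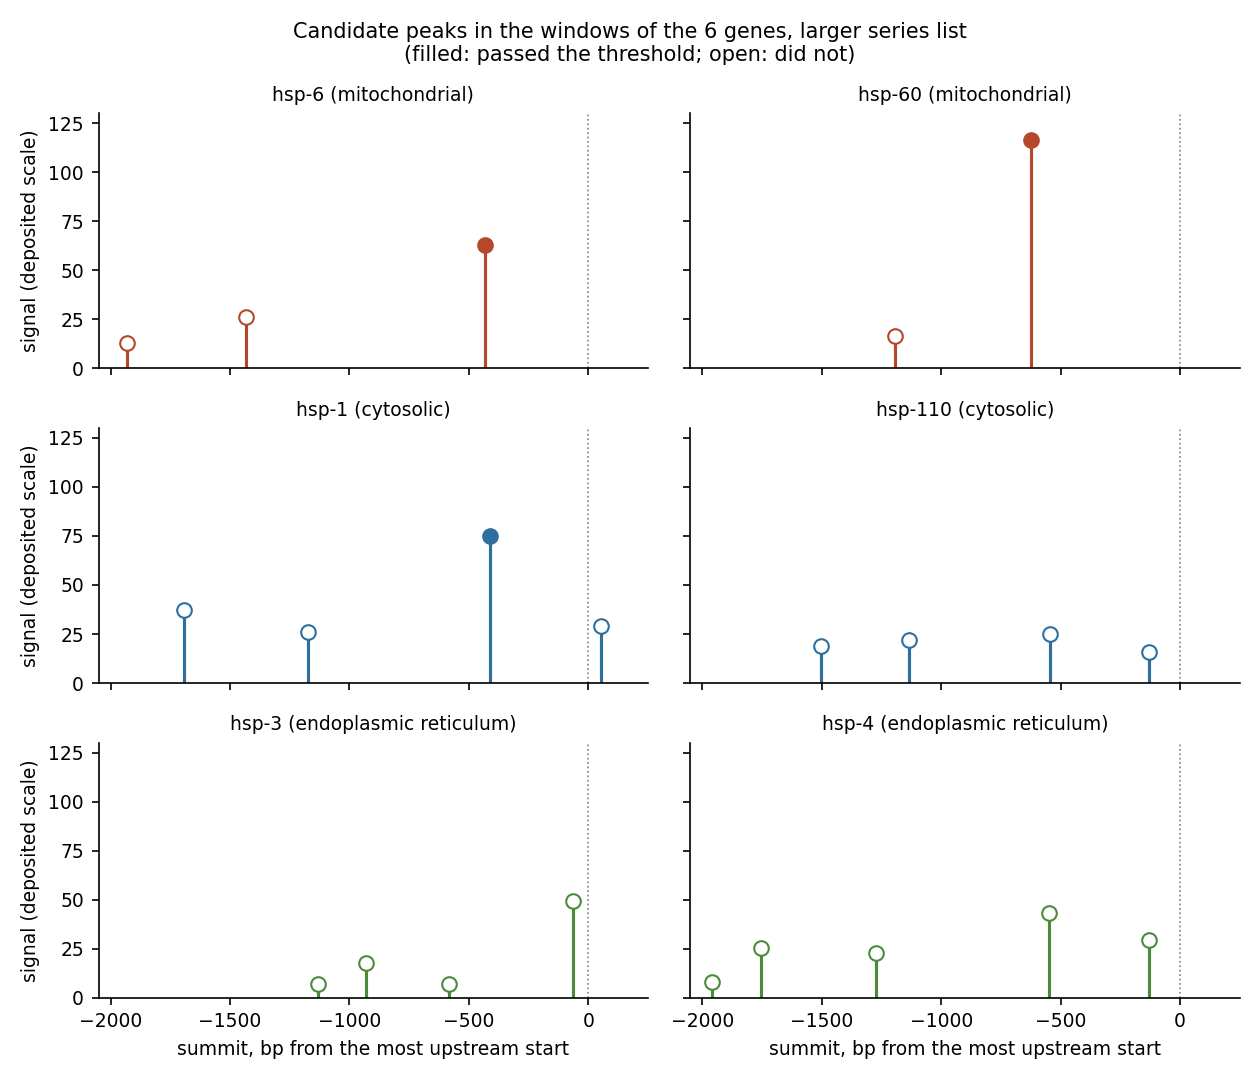
Signal of each candidate of the larger ranked series list (vertical axis, the authors' scale) against the position of its summit in bp from the most upstream start (horizontal axis), 1 panel per gene. Filled points passed into the thresholded list; hsp-60, hsp-1 and hsp-6 have 1 each, between -622 and -410 bp, and hsp-110 has no candidate above 24.8.

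The 3 remaining genes had candidates that did not pass. For hsp-3 (WBGene00002007, chromosome X, 6089028 to 6092124, minus strand), a BiP homolog of the endoplasmic reticulum, the strongest lay 66 bp upstream of the start with signal 49.6, rank 1921 of 115557. It stood out in replicate 1, at -81 bp with signal 33.9, rank 677 of 63930. In replicate 2's ranked list the window held 2 candidates only, at -1968 bp (signal 14.98, rank 31503) and -1029 bp (signal 11.5, rank 47171), and none near the start. The hsp-3 window was thus high in 1 replicate alone, the reverse of hsp-6.

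For hsp-4 (WBGene00002008, chromosome II, 7350112 to 7352645, minus strand), the other BiP homolog, the strongest candidate lay at -549 bp with signal 43.3, rank 3452 of 115557. It was found at nearly the same place in each replicate, at -553 bp in replicate 1 (signal 22.3, rank 3718) and at -550 bp in replicate 2 (signal 21.9, rank 9419). Of the 30-base words within 150 bp of this summit, 29.4% occur more than once in the genome. A read made of such a repeated word alone could not be placed uniquely. The share of repeated words was 0% for each of the other 5 genes' strongest sites. For the median peak of the larger list it was 2.94%, with quartiles at 0% and 21.7%, so high shares also occurred among peaks that passed.

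For hsp-110 (WBGene00016250, chromosome III, 8443910 to 8446909, minus strand), which encodes an HSP70 relative that acts as an exchange factor, the strongest candidate had signal 24.8, rank 32543 of 115557. It lay at -543 bp, in an exon of the divergent neighbour rpn-3, which encodes a proteasome subunit. A stronger candidate lay just outside the window, 225 bp downstream of the start, with signal 44.5, rank 3015 and a −log10 global IDR of 1.89. Another lay at -2019 bp with signal 37.9. The larger list also held a peak at the far end of the gene, 3017 bp downstream of the start and 18 bp past the annotated end, towards ufbp-1, with signal 59.2, rank 885. Replicate 2's own list held that peak with signal 42.1.

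The 6 windows held 2 to 5 candidates a gene in the larger ranked list, 22 in all with the strongest ones counted, where the median over coding genes was 3. At hsp-1 a candidate with signal 37.0 lay at -1694 bp in an exon of clec-196, and another with 29.1 lay 53 bp downstream of the start in the gene's own exon. At hsp-4 a candidate with signal 29.2 lay at -130 bp, the nearest to its start. At hsp-6 the next candidate after the peak had signal 26.0, at -1433 bp, inside C37H5.5. At hsp-60 the only other candidate had signal 16.4, at -1192 bp, inside Y22D7AL.10, and at hsp-3 the next had 17.7, at -930 bp. At hsp-110 the candidate nearest to the start, at -130 bp, had signal 15.6. The hsp-60 window was thus the one with the fewest candidates and the strongest peak.

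In the larger ranked list the authors' threshold falls between hsp-6 and hsp-3. The irreproducible discovery rate (IDR) estimates the share of peaks that fail to repeat between the inputs compared, and the lowest scores in the thresholded lists, 830 to 831, correspond to an IDR of 0.01, a −log10 of 2. In the larger ranked list the values were 3.40 for hsp-60, 2.91 for hsp-1 and 2.39 for hsp-6, all inside. They were 1.13 for hsp-3, 0.81 for hsp-4 and 0.25 for the strongest candidate of hsp-110, all outside. The weaker hsp-110 candidate at -130 bp had 0.58 in this list, above the gene's strongest one. In the conservative ranked list hsp-60 kept 3.33, while hsp-3 with 1.78 stood above hsp-1 with 1.72, hsp-4 with 1.21 and hsp-6 with 0.97. The strongest candidate of hsp-110 had 0.56 there, but its weaker candidate at -130 bp had 1.35, above hsp-4 and hsp-6. The order by IDR and the order by signal were thus not the same in that list.

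Set among all genes, the strongest candidates in the 6 windows spread from near the top to the middle. In the larger ranked list 17969 of the 19973 coding genes had a candidate in the window, and the median gene's strongest one had signal 27.3. The share of coding genes with a candidate at least as strong was 0.801% for hsp-60, 2.35% for hsp-1, 3.65% for hsp-6, 6.86% for hsp-3, 10.6% for hsp-4 and 54.2% for hsp-110. In replicate 1 the order was hsp-60 (1.77%), hsp-1 (1.78%), hsp-3 (2.72%), hsp-4 (10.4%), hsp-110 (10.8%) and hsp-6 (35.5%). In replicate 2 it was hsp-60 (0.516%), hsp-6 (1.67%), hsp-1 (4.43%), hsp-110 (14.8%), hsp-4 (21.9%) and hsp-3 (53.9%). The hsp-110 values belong to different sites, at -543 bp in the larger list, -1980 bp in replicate 1 and -154 bp in replicate 2. Thus hsp-60 led in both replicates, with signal 40.40 against 40.37 for hsp-1 in replicate 1. The places of hsp-6 and hsp-3 changed between the replicates: hsp-6 was last in replicate 1 and hsp-3 last in replicate 2. A single peak's signal has no error, so no neighbours in these orders can be said to differ.

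**Figure D2:**
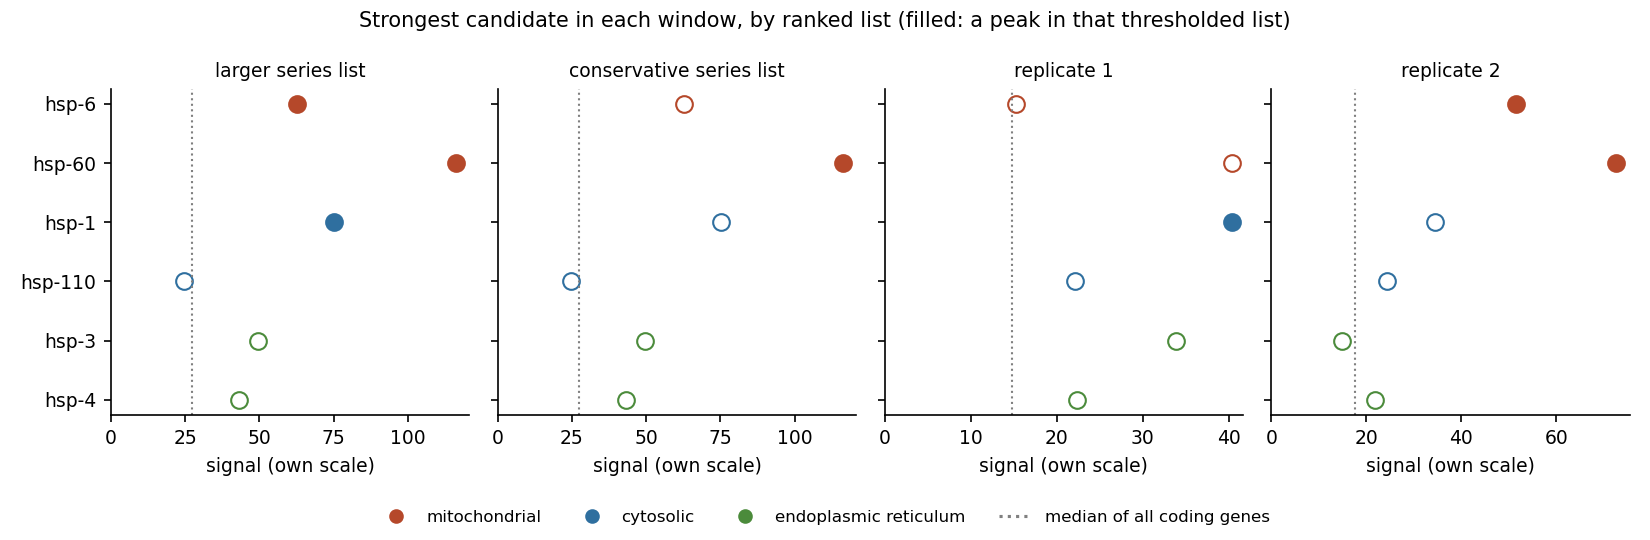
Signal of the strongest candidate in each gene's window (horizontal axis, each list on its own scale) for the 2 series lists and the 2 replicates, with the median over all coding genes dotted. Filled points mark genes with a peak in that thresholded list; hsp-60 is highest in each panel, and hsp-6 and hsp-3 are near the dotted line in 1 replicate each.

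**Figure D3:**
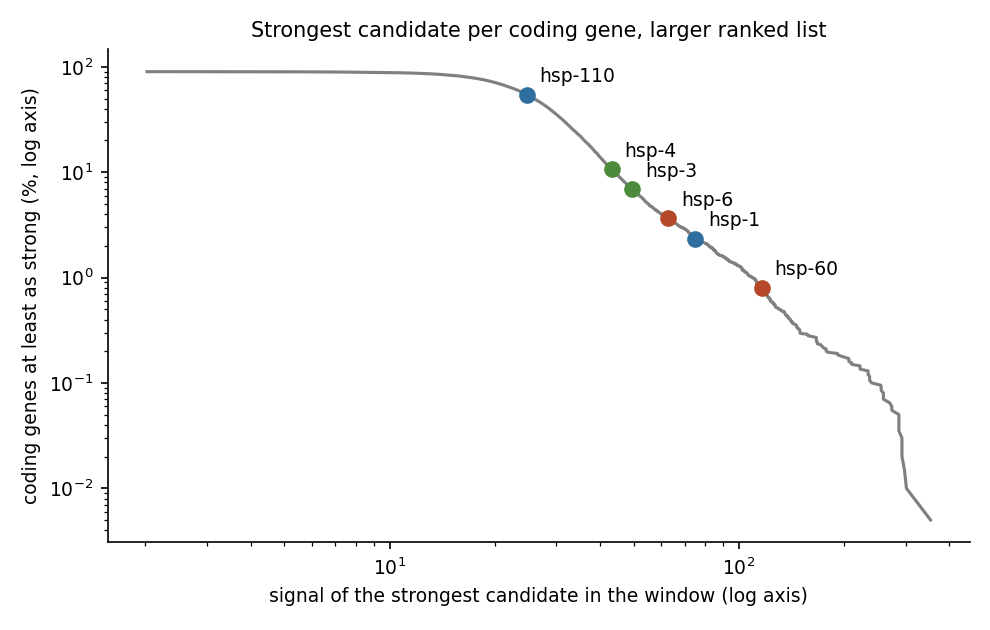
Share of all 19973 coding genes whose strongest candidate is at least as strong (vertical log axis, percent) as the signal on the horizontal log axis, in the larger ranked list. The points place hsp-60 at 0.801% and hsp-110 at 54.2%.

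Words of the kind bound by CUT homeobox proteins were sought on both strands within 150 bp of the strongest summit of each gene. The word ATCGAT was found at none of the 6 genes, in 11.6% of the 1027 windows of the larger list and in 10.5% of the windows around the strongest candidate of each coding gene. The word ATCAAT was likewise found at none of the 6, in 20.4% of the list and in 26.6% of those gene windows. For the word ATTAAT the count was again 0, with 11.5% of the list and 13.7% of the gene windows. GAGAGA was present at hsp-1 and hsp-3, in 33.2% of the list and in 19.3% of the gene windows. At hsp-1 it formed 2 overlapping matches, 34 and 36 bp downstream of the summit. No match says only that these letters are not in this window.

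The paired units of the heat shock element were present at the 3 genes with peaks. GAANNTTC was found at hsp-1, hsp-6 and hsp-60 and in 16.9% of the list, and TTCNNGAA at hsp-6 and hsp-60 and in 15.3%. At hsp-60, 1 match of each overlap, starting at -75 and -70 bp from the summit. At hsp-6 the 2 matches also overlap, but in the reverse order along the gene's strand. The TTCNNGAA match began 125 bp downstream of the summit and crosses the edge of the printed peak. The GAANNTTC match, beginning at 130 bp, lies outside that peak. TGACGTG, the core of the element used in the endoplasmic reticulum response of mammals, was present at hsp-3 alone, 66 bp upstream of its summit, and in 2.73% of the list. Around the strongest candidates of all 17969 coding genes the shares of GAANNTTC, TTCNNGAA and TGACGTG were 19.1%, 18.9% and 2.85%. These words were thus about as common in the list as at other genes.

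The windows differed in base composition. Within 150 bp of the summit, G and C made up 58.1% at hsp-3 and 53.2% at hsp-4, against 44.9% at hsp-60, 39.5% at hsp-1, 38.9% at hsp-110 and 38.2% at hsp-6. The median of the larger list was 42.9%, with quartiles at 38.9% and 47.5%. Both endoplasmic reticulum sites were thus above the upper quartile, and hsp-6 was below the lower one.

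Other chaperone and stress genes were counted from lists of 102 distinct genes, put together by family. In the larger list 15 of them (14.7%) had a summit in the window, against 4.17% of all coding genes, and their median strongest candidate had signal 33.8 against 27.3. In the conservative list 16 did (15.7% against 4.03%). The counts were 8 in replicate 1's own list (7.84% against 1.79%) and 10 in replicate 2's (9.80% against 2.26%). Of the 15, 6 were shared by the own lists of both replicates and 3 were in neither. The matching shares of all coding genes are not given here. The 15 genes hold 14 peaks, among them the hsp-60 peak, through its divergent neighbour Y22D7AL.10. These lists too were chosen with earlier results of these data known. Nothing is therefore read from the counts against the shares of all coding genes, and none of these differences was tested.

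Among the other HSP70 genes, 2 of 7 had a peak, the heat-inducible pair F44E5.4 and F44E5.5, which share 1 peak between their divergent starts. Its signal was 147 in the larger list, rank 62, above that of hsp-60, with 61.8 in replicate 1 and 82.5 in replicate 2, and both replicates' own lists held it. Its summit lay at -162 bp from the start of F44E5.4 and at -189 bp from that of F44E5.5, and 11.0% of the 30-base words around it are repeated. Since the pair shares the peak, it is 1 site and not 2.

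Genes of the cytosolic chaperonin CCT, the counterpart of HSP60 outside the mitochondrion, had peaks at 4 of 8 members in the larger list, with a median strongest candidate of signal 49.2. They were cct-8 (signal 92.4), cct-7 (83.4), cct-1 (77.9) and cct-2 (56.8), with summits from -444 to -242 bp and each shared with another coding gene. The conservative list held 3 of the 8, replicate 1's own list cct-7 alone, and replicate 2's cct-8 and cct-1. As for hsp-1, hsp-6 and hsp-60, no CCT gene was in both replicates' own lists. Without the share of all coding genes in both, nothing is read from this.

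Of 7 partner genes, 2 had peaks in the larger list. The exchange factor gene bag-1 had signal 137 at a peak shared with syp-6, and was in both replicates' own lists (76.4 and 61.2). Y22D7AL.10 was the other, at the peak shared with hsp-60. Of 29 J-domain genes, 3 had peaks in the larger list: dnj-28 (signal 255, shared with supr-1), dnj-13 (132, shared with F54D5.9) and dnj-9 (61.1). The conservative list held these and dnj-5 (56.8), 4 of 29. Both replicates' own lists held dnj-28 and dnj-13. At dnj-28, 30.9% of the 30-base words at the summit are repeated.

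Of 11 genes of the endoplasmic reticulum response only pdi-6, a protein disulfide isomerase, had a peak, 36 bp upstream of its start with signal 110, and both replicates' own lists held it (58.3 and 54.1). Of 4 genes around the heat shock factor, ddl-1, which encodes a partner of an HSF-1 complex, had signal 98.7, at -1257 bp, in a window shared with F59E12.17, sam-4 and zyg-1. Of 14 small heat shock genes 2 had peaks in the larger list. Both are copies that the annotation names hsp-16.48 (signal 71.2 and 51.9), at sites where 42.3% and 56.6% of the words are repeated, so these are uncertain. The conservative list held neither of them, and held instead both copies named hsp-16.1, at 1 shared peak with signal 44.8. In the larger list there were 0 peaks at 12 genes of the mitochondrial unfolded protein response, 3 of the HSP90 family and 8 of mitochondrial import. The 6 members were left out of all these lists, so the 12 do not include hsp-6 and hsp-60, which had peaks. The conservative list differed in mitochondrial import, with 1 of 8, tomm-20 (signal 57.0). No difference from the background is read from lists this short.

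**Figure D4:**
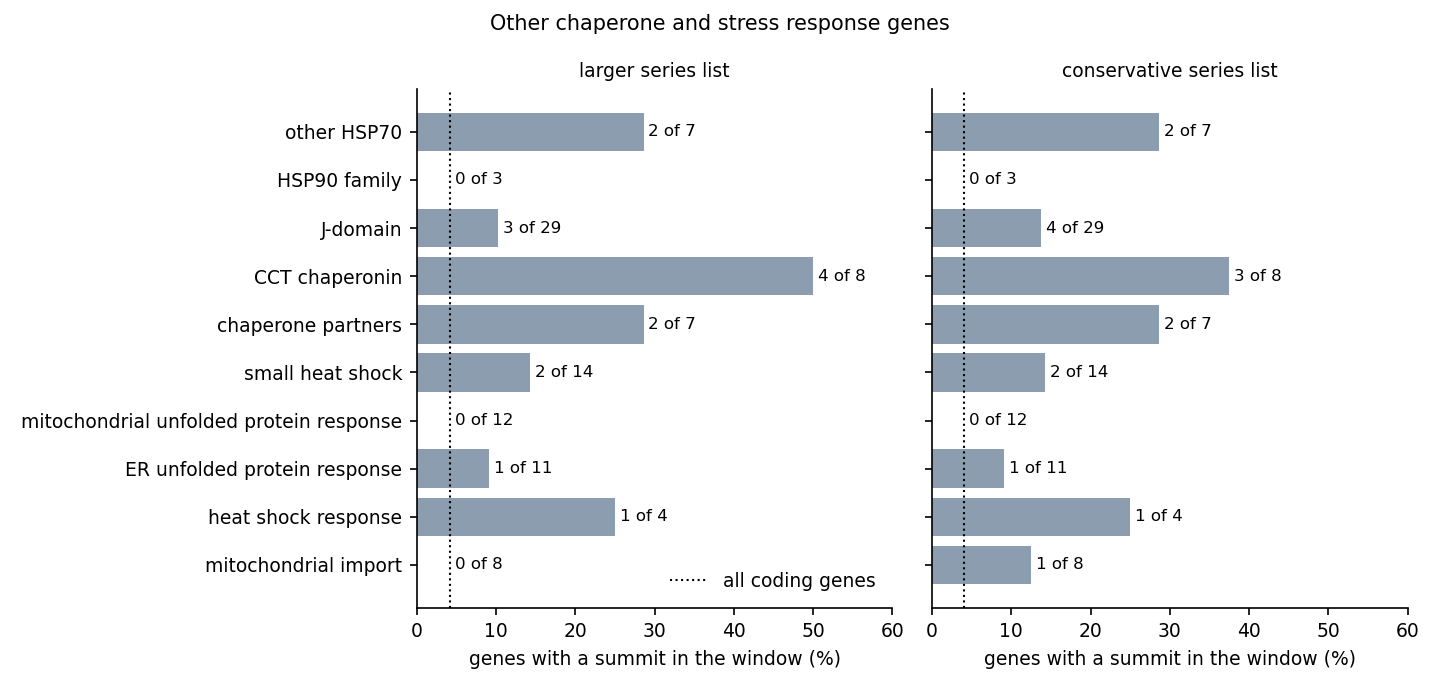
Share of genes in each list with a summit in the window (horizontal axis, percent; counts beside the bars) in the larger and the conservative series list, with the share of all coding genes dotted (4.17% and 4.03%). The CCT bar is the longest in both panels, at 4 of 8 and 3 of 8 genes.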

How the data were processed

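The files are peak lists on ce11, per the labels and the deposited descriptions. For the aligner and the peak caller, the name and version were not given in the sources used here. Depth is unknown, so no error could be set on a peak. Each replicate had a ranked and a thresholded list made from its own alignments. The 2 series ranked lists and 2 series thresholded lists were made from the alignments of both replicates, per the deposited descriptions. Each list had a further input of a kind not stated, and each thresholded list 1 more. The authors' signal of each peak has no stated unit and was used to describe and rank peaks within a list. The authors' deposited score is a scaled IDR of at most 1000, and the authors' ranked lists give −log10 of the global IDR. Each deposited peak list also gives the start, the end and the summit.

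Starts came from the Ensembl annotation of WBcel235 (release 115), and sequences and descriptions from RefSeq. Of 31805 annotated start codons, 99.9% read ATG on that genome, and no peak passed a chromosome's end. A gene was counted when a summit fell in the window of 2000 bp before and 200 bp after its most upstream start. Words were sought on both strands within 150 bp of the summit. The window count was tested on simulated data with known positions. A gene name in a list covered every annotated gene of that name. The names daf-21, hsp-10, mge-1 and bag-2 were not found, and daf-21 is listed as hsp-90. The partner list did hold Y22D7AL.10, the gene described as the mitochondrial 10 kDa heat shock protein, under that name. All 6 members are named, with genes within 500 bp of a thresholded summit or sharing its window, and up to 6 genes of each other list with a peak in the larger list, by signal. The genes rpn-3, clec-196, ufbp-1, dnj-5, tomm-20 and hsp-16.1 were named after their values had been seen. Python 3.11.15, numpy 2.4.6, pandas 2.3.3 and scipy 1.17.1 were used. The members and lists were chosen with earlier results of these data known. No group comparison or test was made, as there was 1 group.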

Additional observations from a re-analysis of the deposited data

How the results depend on the processing

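The 3 genes of the larger list became 1 with each summit given to the nearest coding start (hsp-1, since the other 2 summits lie nearer to Y22D7AL.10 and C37H5.5; 2.49% of coding genes), 1 in the conservative list (hsp-60; 4.03%) and 1 among peaks above the larger list's median signal (hsp-60; 2.25%). The count was 2 with a window of 500 bp upstream, where hsp-60 was lost (2.24%). It stayed at 3 with 1000 bp upstream (2.99%), any annotated start (4.59%), any overlap of the peak (4.36%), or the ranked list at the same IDR (4.24%). With 1 replicate left out, that is in the other replicate's own list, it was 1 to 2 (1.79% and 2.26%). The count of 15 other chaperone and stress genes ranged from 8 to 10 in the replicates' own lists. It was 12 with 1000 bp upstream and 16 in the conservative list. The share of peaks at least as strong was 14.6% for hsp-60, 51.1% for hsp-1 and 77.4% for hsp-6. Ranked by score, where 679 of the 1027 peaks are at 1000, these became 66.1%, 66.1% and 68.1%, since tied peaks share a place. For hsp-60 it was 14.9% in the conservative list, where hsp-1 and hsp-6 have no peak and so no value. No paired analysis was possible because the replicates form 1 group. Since the depth is unknown, a site absent from 1 replicate's list cannot be set against its depth.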

Other observations

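The peaks of the 2 mitochondrial genes share the 11 bases TGATGCAAAAG in the same orientation, beginning 99 bp downstream of the summit at hsp-6 (-333 bp from the gene's start) and 107 bp downstream of it at hsp-60 (-515 bp). The stretch was noticed after the sequences had been read. Its first 8 bases, TGATGCAA, are shared with the C/EBP-ATF composite element known from mammals, and were found at hsp-6 and hsp-60 and at none of the other 4 genes. They were present in 1.56% of the 1027 windows of the larger list and in 1.46% of 17969 windows around the strongest candidate of each coding gene. The full stretch was present in 2 windows of the list, those of hsp-6 and hsp-60, and in 8 of the 17969. Windows around divergent starts can count for both genes of a pair. Stretches at least as long were also shared by other pairs. In the same orientation, hsp-1 and hsp-60 shared 11 bases and hsp-6 and hsp-4 shared 15. In the opposite orientation, hsp-6 and hsp-3 shared 11 and hsp-1 and hsp-4 shared 12. The remaining pairs shared 8 to 10. The bases of these other stretches were not compared.

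Another word noticed in the same way, GGGCGG, was present at hsp-6, hsp-60, hsp-1 and hsp-4, in 15.2% of the list and in 7.87% of the windows of all coding genes. CCAAT was present at hsp-6, hsp-60, hsp-3 and hsp-4, in 39.7% of the list and in 49.8% of those windows. The matches are descriptions of sequence, and none was tested.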
